A study of Homo sapiens with 6 samples.

Results

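The histone lysine methyltransferases and demethylases described here are 58 of the 30727 genes counted, chosen by symbol: the KMT2 genes, the lettered KDM genes, the SETD, SMYD, PRDM and NSD genes, and DOT1L, ASH1L and SETMAR. The KMT5 and SETDB genes were left out by the rule. SETD1A and SETD1B were taken in as SETD genes. KDM4F carries a symbol that the rule names and was not used here. RNA was measured in PANC-1, an established line of human pancreatic duct carcinoma cells, as poly(A) RNA sequencing of 3 libraries labelled SUV420H2 knockdown and 3 labelled control. The siRNA label of the first group names SUV420H2 and that of the other says control only. The siRNA sequences, the time after transfection and the origin of the libraries in separate cultures are not stated in the labels, so each p-value covers the spread among these libraries alone, and the results concern 1 cell line.

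Methyl groups on histone lysines are written by SET domain enzymes and, at lysine 79 of histone H3, by DOT1L, which has no SET domain. They are removed by amine oxidases of the LSD type (KDM1A and KDM1B) and by JmjC demethylases, which use iron and oxoglutarate. Methylation of H3 lysine 4 (H3K4) and lysine 36 (H3K36) is known from active genes, that of lysine 9 (H3K9) and lysine 27 (H3K27) from silent ones. The PRDM proteins carry a domain related to SET and zinc fingers, and many act as transcription factors rather than as enzymes. SUV420H2, now named KMT5C, methylates lysine 20 of histone H4.

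Counted reads ran from 27007534 to 38022772 in the knockdown libraries and from 20863594 to 25931995 in the controls. The targeted gene KMT5C (chromosome 19, 55339876 to 55348121, GRCh38) had 6.03, 6.11 and 5.86 CPM (a rate by TMM-adjusted library size) in the knockdown libraries, against 9.55, 7.23 and 12.7 CPM in the controls. Every knockdown value lay below every control value, and the controls spread more widely. KMT5C thus stood at −0.72 on the log2 scale (SE 0.163, edgeR adjusted p = 0.00227), or −0.50 without control replicate 3, while an exact two-sided permutation test stood at p = 0.1, below which 3 against 3 libraries cannot go. Control replicate 3 was the lowest control for 24 of the 49 members tested and the highest for 18, 49.0% and 36.7%, against 42.5% and 41.1% of all genes tested. The extraction text of the labels speaks of neurons, microglia and astrocytes rather than of a cell line, so markers of those cells were read beside those of duct epithelium. Of the 7 duct and carcinoma epithelium markers all were expressed, with a summed level of 6233 to 6448 CPM in the knockdown libraries and 2648 to 3209 CPM in the controls. Most of that sum was KRT8 (2590 CPM in the knockdown and 893 CPM in the controls) and KRT18 (2343 CPM in the knockdown and 791 CPM in the controls). CDH1 (3.46 on the log2 scale), EPCAM (2.35) and KRT7 (1.29) rose as well, while KRT19 (−0.32) and SOX9 (−0.14) fell. Neuron markers summed to 4.54 to 5.37 CPM in the knockdown libraries and 9.67 to 11.3 CPM in the controls. Astrocyte markers summed to 2.48 to 3.03 CPM in the knockdown and 2.41 to 2.90 CPM in the controls, with AQP4 at 0 reads. Microglia and leukocyte markers summed to 0.366 to 0.847 CPM in the knockdown and 0.193 to 0.320 CPM in the controls, and fibroblast and endothelium markers to 0.532 to 0.663 CPM in the knockdown and 0.0482 to 0.280 CPM in the controls. Of the 6 microglia and leukocyte and the 6 fibroblast and endothelium markers, 0 had enough reads to be tested. Those sums rest on few reads and are not shown to differ between the groups. Among the 5 astrocyte markers 1 was tested, and among the 5 neuron markers 3 were. The part of these marker differences in the results below was not tested. Among the neuron markers SYT1 fell, at 1.78 CPM in the knockdown and 8.07 CPM in the controls, SNAP25 rose, at 0.735 CPM in the knockdown and 0.384 CPM in the controls, and GRIN1 did not pass. In bulk RNA, fewer cells of a type and less RNA per cell cannot be told apart.

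Of the 58 genes, 49 passed the filter on low counts and were tested. In edgeR's quasi-likelihood test 17 rose and 16 fell, with p-values adjusted over all genes tested and a threshold of 0.05, and 16 did not pass. That is 67.3% of those tested, and over all 15190 genes tested 67.3% passed, 33.1% higher and 34.2% lower, so the share of changed genes was at the background. The median absolute log2 fold change was 0.25 for the members and 0.35 for all genes tested. At least 1.5-fold changes past the threshold were found for 5 higher members (DOT1L, SETD7, PRDM1, KDM4D and KDM7A) and 5 lower ones (among them KDM1B, PRDM8, PRDM16 and PRDM4), 20.4% of those tested, against 30.2% of all genes tested (15.6% higher, 14.6% lower). The groups did not overlap for 36 members, 73.5% against 71.3% of all genes tested. By type, 8 methyltransferases outside the PRDM family rose and 7 fell of 24 tested, 8 KDM genes rose and 3 fell of 16 tested, and 1 PRDM gene rose and 6 fell of 9 tested.

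Promoter sequences are shown for 2 genes that rose and 2 that fell by at least 1.5-fold, because genes of both directions can be set side by side there. They are RefSeq promoters (GRCh38.p14) from 250 bases before to 50 bases after 1 annotated start, written 5′ to 3′ on the gene's strand. Capitals mark CACCTG, the E-box bound by ZEB and SNAI factors, and GGGCGG, the GC box, each searched on both strands; the printed matches do not overlap. The windows lie at chr6:18155172-18155471 for KDM1B (plus strand), chr4:80185020-80185319 for PRDM8 (plus strand), chr11:94973459-94973758 for KDM4D (plus strand) and chr6:106086086-106086385 for PRDM1 (plus strand, a start inside the annotated gene, which begins at 105992690).
KDM4D: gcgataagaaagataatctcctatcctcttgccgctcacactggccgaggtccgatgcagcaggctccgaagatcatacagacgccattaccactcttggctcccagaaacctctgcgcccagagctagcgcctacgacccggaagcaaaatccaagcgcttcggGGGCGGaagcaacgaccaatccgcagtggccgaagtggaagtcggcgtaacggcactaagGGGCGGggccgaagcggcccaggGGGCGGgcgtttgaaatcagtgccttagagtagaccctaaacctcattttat
PRDM1: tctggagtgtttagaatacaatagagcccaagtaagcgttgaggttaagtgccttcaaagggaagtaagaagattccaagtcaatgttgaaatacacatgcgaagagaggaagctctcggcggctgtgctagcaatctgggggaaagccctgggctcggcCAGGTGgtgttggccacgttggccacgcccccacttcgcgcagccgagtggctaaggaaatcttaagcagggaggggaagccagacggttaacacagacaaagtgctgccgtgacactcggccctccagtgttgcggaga
KDM1B: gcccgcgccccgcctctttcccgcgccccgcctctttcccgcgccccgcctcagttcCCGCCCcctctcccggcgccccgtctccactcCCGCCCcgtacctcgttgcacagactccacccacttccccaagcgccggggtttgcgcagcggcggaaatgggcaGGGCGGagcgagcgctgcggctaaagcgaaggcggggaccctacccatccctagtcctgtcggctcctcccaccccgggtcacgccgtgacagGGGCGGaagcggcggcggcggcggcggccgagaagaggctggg
PRDM8: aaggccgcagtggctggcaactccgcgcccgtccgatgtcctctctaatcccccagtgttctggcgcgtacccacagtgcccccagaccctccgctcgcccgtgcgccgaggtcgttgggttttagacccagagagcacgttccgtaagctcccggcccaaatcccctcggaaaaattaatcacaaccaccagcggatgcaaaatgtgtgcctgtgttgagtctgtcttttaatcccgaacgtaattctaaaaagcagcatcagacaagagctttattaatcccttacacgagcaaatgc
The promoter of KDM1B, which fell, held 4 GC boxes and that of KDM4D, which rose, held 3, while those of PRDM1 and PRDM8 held none. The only CACCTG among these 4 was in PRDM1. TPMT lies 253 bases before KDM1B and CWC15 153 bases before KDM4D, so boxes in those windows cannot be assigned to either gene alone. Over the 50 members with a sequence, 74% held a GC box and 12% a CACCTG, against 44.6% and 20.6% of all 27305 promoters. Those 27305 were not limited to genes tested here, whereas 44 of the 50 members were tested, so the 2 sets are unlike. The GC box was found in 11 of 15 members that rose, 9 of 14 that fell and 13 of 15 that did not pass. CACCTG was found in NSD1 and PRDM1, which rose, in KDM4C, which fell, in KMT2B and PRDM10, which did not pass, and in 1 member not tested. The median number of CpG dinucleotides in the window was 29 for the members and 14 for all promoters.

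Among the large H3K4 methyltransferases of the COMPASS type, the RNA of KMT2D and KMT2C rose and that of KMT2E fell, whereas 4 of 7 did not pass. Over all genes tested 67.3% passed, and the 7 were not tested as a group. KMT2D, an enhancer H3K4 monomethyltransferase, had 122, 133 and 116 CPM in the knockdown libraries, against 87.0, 85.4 and 87.6 CPM in the controls. The 3 knockdown values all stood above the controls, at a log2 fold change of 0.51 (SE 0.0542, edgeR adjusted p = 8.55e-06), below the 1.5-fold line. KMT2C, its closest relative, averaged 67.7 ± 4.03 CPM in the knockdown and 54.6 ± 5.57 CPM in the controls (SD, n = 3 each; log2 fold change 0.31, SE 0.0743, edgeR adjusted p = 0.00333); its reads are uncertain because pseudogenes copy part of the gene. KMT2E, which carries a SET domain with no known histone methyltransferase activity, averaged 64.7 ± 2.45 CPM in the knockdown and 91.2 ± 7.13 CPM in the controls (−0.49, SE 0.0609, edgeR adjusted p = 2.77e-05). KMT2A (0.04), known for its control of Hox genes, its relative KMT2B (−0.02), and SETD1A (−0.06) and SETD1B (−0.11), the enzymes of bulk H3K4 trimethylation, did not pass.

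SETD7, a monomethyltransferase of H3K4 in vitro that also acts on other proteins (chromosome 4, 139492974 to 139556219), was the H3K4 enzyme of the list with the largest fold change. It had 179, 179 and 180 CPM in the knockdown libraries, against 107, 111 and 98.0 CPM in the controls. The knockdown libraries lay within a narrow band above all 3 controls, and the gene rose by 0.76 on the log2 scale (SE 0.0503, 1.7-fold, edgeR adjusted p = 1.85e-07). Per length, SETD7 made up 29.6% ± 1.04 of the summed RPKM of the H3K4 methyltransferase list in the knockdown and 19.3% ± 0.968 in the controls (SD, n = 3 each).

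Of the 6 writers of H3K36 methylation, 2 rose, 4 fell and none changed 1.5-fold, where 67.3% of all genes tested passed and 30.2% changed at least 1.5-fold; the call of SETD2 among the 4 depended on the processing. NSD3, an H3K36 dimethyltransferase, averaged 43.8 ± 0.790 CPM in the knockdown and 30.0 ± 3.24 CPM in the controls (SD, n = 3 each; log2 fold change 0.55, SE 0.0746, edgeR adjusted p = 6.2e-05), just short of 1.5-fold. NSD1, which deposits the same mark, rose by 0.22 (SE 0.0497), while NSD2, the highest of the NSD genes in CPM, fell by 0.19 (SE 0.0447). ASH1L, an H3K36 methyltransferase of the trithorax group, had 78.7, 82.2 and 78.5 CPM in the knockdown libraries, against 116, 126 and 103 CPM in the controls, with no overlap (−0.53, SE 0.0659, edgeR adjusted p = 3.19e-05). SETMAR, a SET protein fused to a transposase, stood at −0.51 (SE 0.109, edgeR adjusted p = 0.00146); the transposase part has many genomic copies, and the gene overlaps SUMF1, so its count is uncertain. SETD2, the H3K36 trimethylation enzyme, had 75.4, 83.9 and 81.4 CPM in the knockdown libraries, against 91.3, 93.2 and 82.3 CPM in the controls. Its groups overlapped, and the fall of 0.15 (SE 0.0597, edgeR adjusted p = 0.0459) lost the call under 10 of 15 alternatives (edgeR adjusted p = 0.209 without knockdown replicate 1, 0.0882 without knockdown replicate 3, 0.167 without control replicate 1 and 0.163 without control replicate 2). Control replicate 3 held the lowest control value for all 6 genes.

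DOT1L, the only H3K79 methyltransferase known in humans (chromosome 19, 2163933 to 2232578), had the second largest rise of the members. It had 95.1, 98.0 and 87.5 CPM in the knockdown libraries, against 37.0, 38.3 and 44.8 CPM in the controls. No control reached the lowest knockdown library, and DOT1L rose by 1.22 on the log2 scale (SE 0.0734, 2.33-fold, edgeR adjusted p = 9.04e-08). Its annotated interval overlaps PLEKHJ1 (0.45) and AP3D1 (−0.15), and no strand setting is given, so reads of shared bases cannot be assigned. Of its 6 listed partner genes, counting AFF1 and AFF4 of the super elongation complex, 4 fell and 2 did not pass (median −0.25). Over all genes tested 34.2% fell, 67.3% passed and the median was −0.01, and the list was not tested as a group. AFF4, the scaffold of the super elongation complex, which shares AF9-type subunits with DOT1L, had 29.6, 29.3 and 27.6 CPM in the knockdown libraries, against 167, 167 and 148 CPM in the controls. That fall is −2.48 on the log2 scale (SE 0.0612, edgeR adjusted p = 1.82e-10), with the groups far apart. MLLT6 fell by 1.38 (SE 0.0673, edgeR adjusted p = 1.91e-08).

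**Figure D1:**
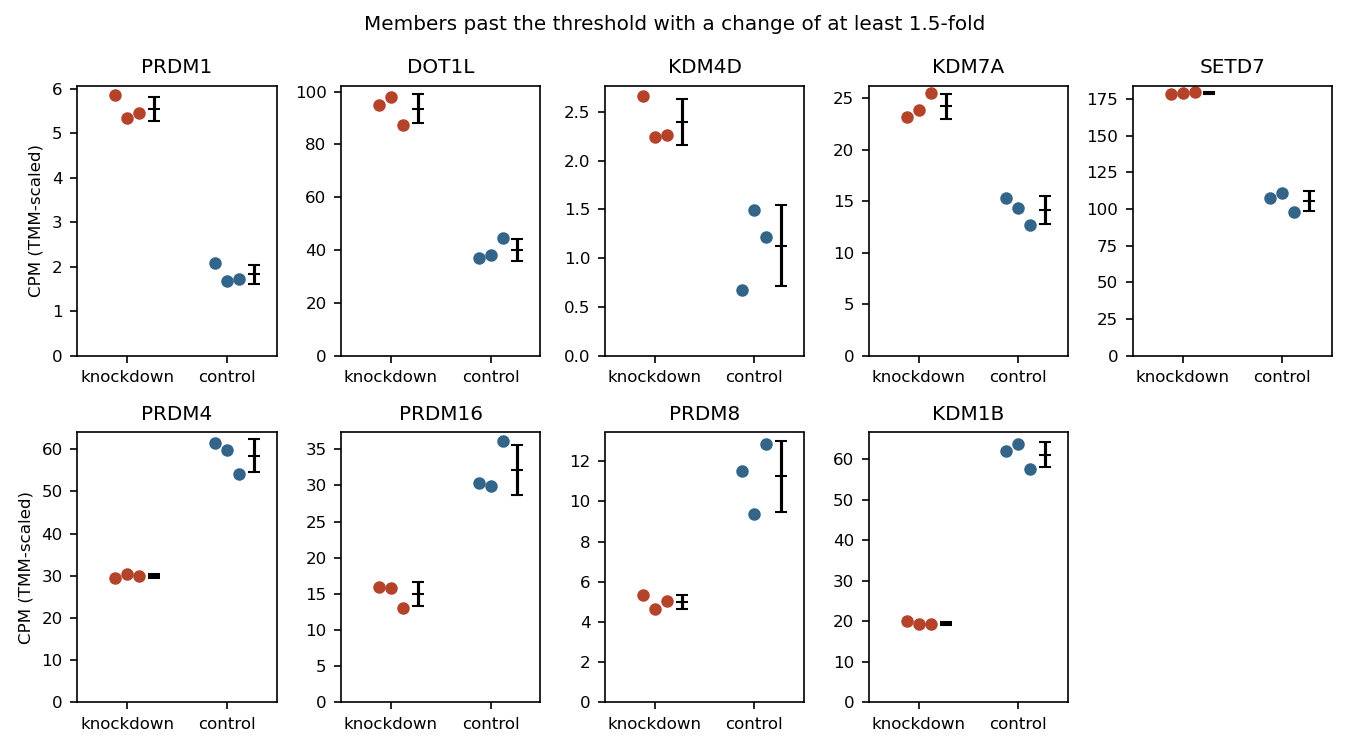
CPM of each library (points) for 9 members past the threshold with at least a 1.5-fold change, knockdown left of control; the bars give the mean ± SD of 3 libraries and every vertical axis starts at 0. No panel shows an overlap, with DOT1L at 87.5 to 98.0 CPM in the knockdown and 37.0 to 44.8 CPM in the controls, and KDM1B at 19.4 to 20.0 CPM in the knockdown and 57.7 to 63.9 CPM in the controls.

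Of the SETD genes with mainly non-histone or little known substrates, none of 5 tested passed (SETD3, SETD4, SETD5, SETD6 and SETD9). Their log2 fold changes ran from −0.20 to 0.08. Among all genes tested 67.3% passed, and these 5 were not tested as a group. By DESeq2 and limma-voom 0 of them passed too, and 0 had an unadjusted edgeR p under 0.05. SETD4 passed without control replicate 1 (−0.28, edgeR adjusted p = 0.0443) and SETD5 without control replicate 3 (−0.08, edgeR adjusted p = 0.0383). SETD3, the methyltransferase of actin histidine, averaged 81.2 ± 1.81 CPM in the knockdown and 80.9 ± 2.89 CPM in the controls (SD, n = 3 each).

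The 4 tested SMYD genes, which join a SET domain to a MYND zinc finger, split evenly and by small amounts. All 4 passed, where 67.3% of all genes tested did, and the family was not tested as a group. SMYD4 rose by 0.43 (SE 0.0751, edgeR adjusted p = 0.0004) and SMYD5 by 0.27 (SE 0.0465, edgeR adjusted p = 0.000319), while SMYD2 and SMYD3, which methylate signalling proteins as well as histones, both stood at −0.25 (SE 0.0479 and 0.0724). Per length, SMYD2 was the third most abundant member: it had 28.0, 27.4 and 29.0 RPKM in the knockdown libraries, against 33.1, 33.5 and 32.3 RPKM in the controls. All 3 knockdown values lay below the controls (edgeR adjusted p = 0.000861). SMYD1, a muscle gene, had 4 reads in the knockdown and 2 in the controls and was not tested.

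In the PRDM family 6 of 9 tested genes fell, 1 rose and 2 did not pass, with a median log2 fold change of −0.36. Over all genes tested 34.2% fell, 33.1% rose and the median was −0.01, and the family was not tested as a group. PRDM1, or Blimp-1, a repressor known from plasma cells and other lineages (chromosome 6, 105992690 to 106109938), had 5.85, 5.34 and 5.46 CPM in the knockdown libraries, against 2.08, 1.69 and 1.72 CPM in the controls. It had the largest rise of the members, 1.60 (SE 0.122, 3.03-fold, edgeR adjusted p = 5.88e-07), with no overlap, but also the lowest mean level per length of those tested (0.689 ± 0.0329 RPKM in the knockdown and 0.225 ± 0.0273 RPKM in the controls; SD, n = 3 each).

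PRDM8, a neuronal cofactor and repressor known from mouse (chromosome 4, 80185270 to 80204329), had 5.33, 4.64 and 5.03 CPM in the knockdown libraries, against 11.5, 9.35 and 12.9 CPM in the controls. PRDM16, a regulator of brown fat and blood stem cells in mouse (chromosome 1, 3069203 to 3438621), had 16.0, 15.8 and 13.0 CPM in the knockdown libraries, against 30.4, 30.0 and 36.2 CPM in the controls. Both lay below every control, PRDM8 at −1.17 (SE 0.12, edgeR adjusted p = 6.36e-06) and PRDM16 at −1.11 (SE 0.0972, edgeR adjusted p = 1.82e-06). PRDM4, a zinc finger factor of nerve growth factor receptor signalling (chromosome 12, 107732871 to 107761137), had 29.4, 30.5 and 30.0 CPM in the knockdown libraries, against 61.5, 59.7 and 54.2 CPM in the controls. The gap between the groups was wider than the spread within either (−0.96, SE 0.0603, edgeR adjusted p = 1.22e-07); its antisense gene PRDM4-AS1 stood at −0.88, and reads of the pair cannot be told apart without strand. Just outside the 1.5-fold line, within 0.1 on the log2 scale, lay 6 members: NSD3, ASH1L, SETMAR, KMT2D, KDM6B and KMT2E.

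The other PRDM genes tested were lower or did not pass. PRDM2, also named RIZ1, an H3K9 methyltransferase, fell by 0.29 (SE 0.0546) and PRDM11 by 0.36 (SE 0.0916), while PRDM10 (−0.15) and PRDM15 (−0.07) did not pass. PRDM6, PRDM7, PRDM9, PRDM12, PRDM13 and PRDM14 were below the filter, with at most 32 reads in the 3 knockdown libraries together and 12 in the 3 controls (both PRDM6). PRDM9, the H3K4 methyltransferase of meiotic recombination, had 8 reads in the knockdown and 1 in the controls; it and PRDM7 are near-identical copies, so their unique counts are uncertain. MECOM, which the PRDM scheme also counts as PRDM3 and which is no member here, was also below the filter.

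**Figure D2:**
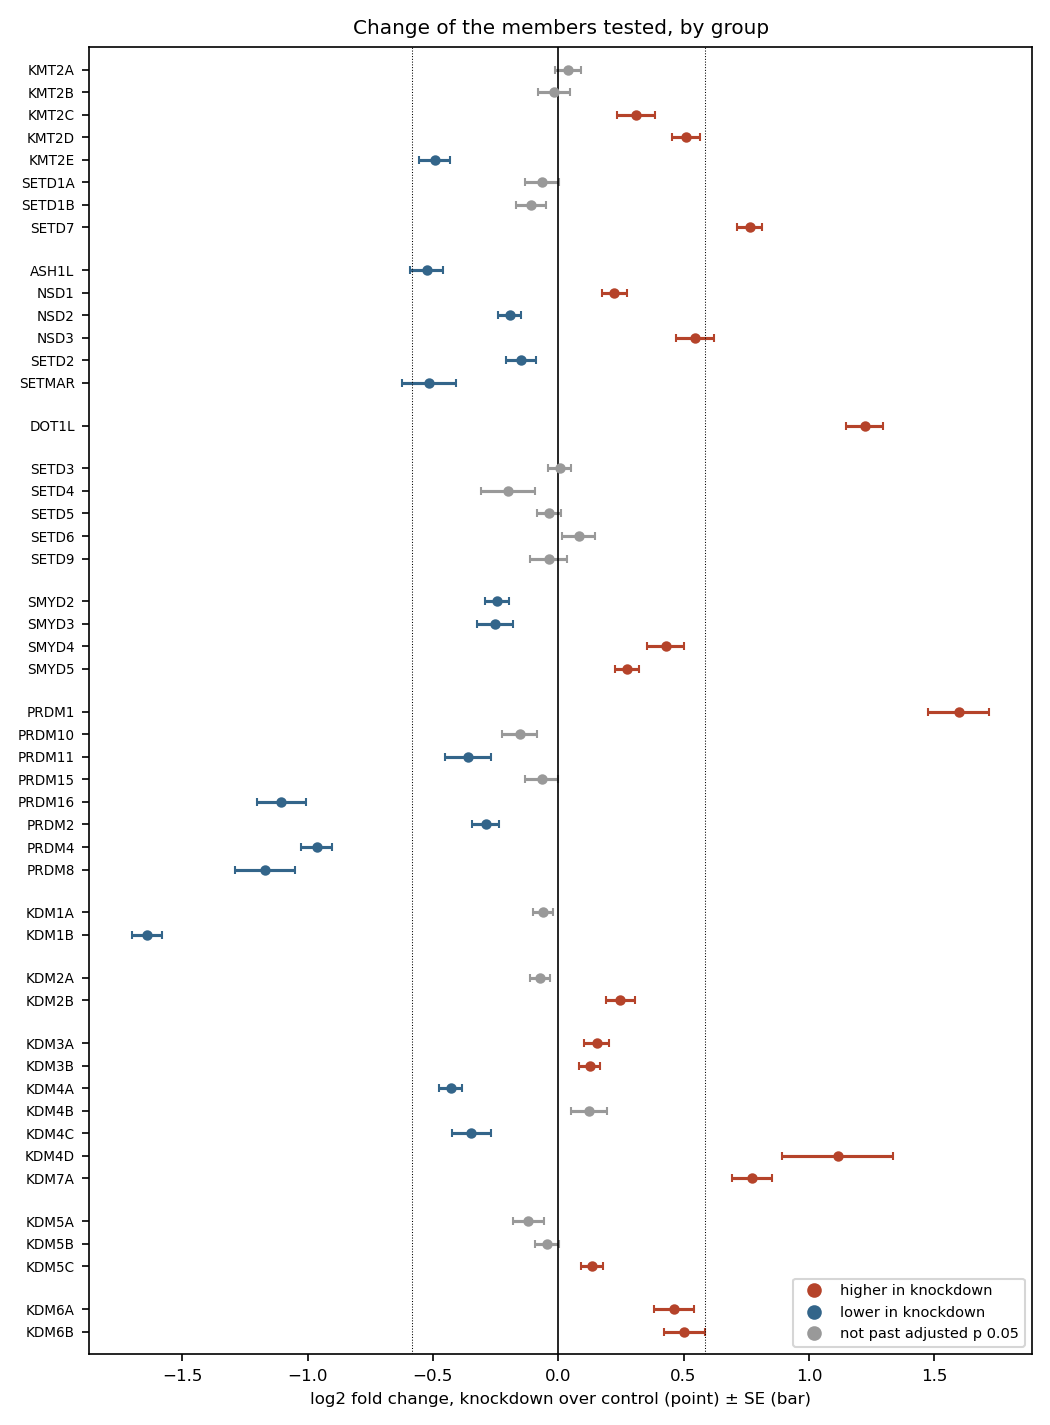
Log2 fold change, knockdown over control, of the tested members named here (points) with its SE (bars), grouped by substrate or family; colour gives the call at an adjusted p of 0.05, and dotted lines mark a 1.5-fold change. The points run from −1.64 for KDM1B to 1.60 for PRDM1, with DOT1L, SETD7, KDM4D and KDM7A also beyond the upper dotted line and PRDM8, PRDM16 and PRDM4 beyond the lower one.

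Of the LSD-type demethylases, which remove mono- and dimethylation from H3K4, KDM1B fell and KDM1A did not pass. KDM1B, or LSD2 (chromosome 6, 18155422 to 18223854), had 20.0, 19.4 and 19.4 CPM in the knockdown libraries, against 62.1, 63.9 and 57.7 CPM in the controls. Each knockdown library was far below each control, and the log2 fold change of −1.64 (SE 0.0589, edgeR adjusted p = 2.39e-09) was the largest of any member. KDM1A, or LSD1, the catalytic subunit of the CoREST complex and the most abundant member per length, had 55.2, 56.9 and 57.2 RPKM in the knockdown libraries, against 58.8, 57.8 and 57.8 RPKM in the controls. The values did not overlap but differed by −0.06 only (SE 0.0385, edgeR adjusted p = 0.184). The share of KDM1B in the summed RPKM of the pair was 7.17%, 6.78% and 6.74% in the knockdown libraries, against 18.3%, 19.0% and 17.2% in the controls.

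Of the H3K36 demethylases, which are known for binding unmethylated CpG islands, KDM2B rose and KDM2A did not pass. KDM2A, the second most abundant member per length, had 30.0, 31.5 and 30.6 RPKM in the knockdown libraries, against 31.7, 32.6 and 31.5 RPKM in the controls. In RPKM the highest knockdown value reached the lowest control value, whereas in CPM, at 243 to 255 in the knockdown and 258 to 266 in the controls, the groups did not overlap. KDM2A did not pass (−0.07, SE 0.0394, edgeR adjusted p = 0.121). KDM2B, which brings a Polycomb complex to CpG islands, rose by 0.25 (SE 0.0572, edgeR adjusted p = 0.00266).

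The 7 tested demethylases of H3K9 split: 4 rose, 2 fell and KDM4B did not pass. Over all genes tested 33.1% rose and 34.2% fell, and the 7 were not tested as a group. KDM7A, which acts on H3K9 and H3K27 (chromosome 7, 140084746 to 140176983), had 23.2, 23.9 and 25.5 CPM in the knockdown libraries, against 15.3, 14.4 and 12.7 CPM in the controls. All knockdown libraries were higher (0.77, SE 0.0803, 1.71-fold, edgeR adjusted p = 6.99e-06). KDM4D, a demethylase without the reader domains of its relatives KDM4A to KDM4C (chromosome 11, 94973709 to 94999519), had 2.66, 2.25 and 2.26 CPM in the knockdown libraries, against 0.679, 1.49 and 1.21 CPM in the controls, from as few as 17 reads in a library. It rose by 1.11 (SE 0.222, edgeR adjusted p = 0.000991), with the widest relative spread in the controls of the genes that changed at least 1.5-fold. KDM4A, an H3K9 and H3K36 demethylase, fell by 0.43 (SE 0.0463, edgeR adjusted p = 9.46e-06) and KDM4C by 0.35 (SE 0.0782, edgeR adjusted p = 0.00221). KDM3A and KDM3B, which remove H3K9 mono- and dimethylation, rose by 0.15 and 0.12; KDM3A lost the call without knockdown replicate 1, knockdown replicate 2 or control replicate 1 (adjusted p = 0.063, 0.0694 and 0.0616), and KDM3B without any of the 3 knockdown replicates or control replicate 1 (0.0747, 0.0664, 0.0525 and 0.0546). KDM4E had 0 reads in the knockdown and 3 in the controls and was not tested.

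Both H3K27 demethylases rose and 1 of 3 tested H3K4 demethylases of the JmjC type did. Among all genes tested 33.1% rose, and neither set was tested as a group. KDM6A, or UTX, a subunit of the KMT2C and KMT2D complexes, had 47.3, 47.0 and 47.3 CPM in the knockdown libraries, against 35.7, 37.8 and 29.7 CPM in the controls (0.46, SE 0.0788, edgeR adjusted p = 0.00033). KDM6B, or JMJD3, known as inducible in macrophages, had 24.6, 24.9 and 23.9 CPM in the knockdown libraries, against 16.4, 15.8 and 19.5 CPM in the controls (0.50, SE 0.0816, edgeR adjusted p = 0.000229). In both genes the groups were apart and the knockdown libraries lay closer together than the controls. KDM5C, an X-linked H3K4 demethylase, rose by 0.13 (SE 0.0435, edgeR adjusted p = 0.0184), a call lost without knockdown replicate 1, knockdown replicate 2 or control replicate 1 (adjusted p = 0.0898, 0.0713 and 0.0718). KDM5A (−0.12) and KDM5B (−0.05), both linked to drug tolerance in cancer cells, did not pass, but were lower without control replicate 3 (−0.18 with edgeR adjusted p = 0.000559, and −0.10 with 0.00571). KDM5D was below the filter. KDM5C and KDM5D, KDM6A and UTY, and KDM4D and KDM4E are similar copies that reads could be split between. Few reads were counted for the second of each pair. KDM5D had 0 in the knockdown and 1 in the controls, UTY 2 and 0, and KDM4E 0 and 3. In all, 23 of the members overlap another listed gene, among them KDM1A with LUZP1 (0.74), KMT2E with SRPK2 (0.25) and NSD3 with DDHD2 (−0.26).

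Levels per length spanned a wide range. On the scale of the deposited RPKM, averaged over all 6 libraries, KDM1A (57.3), KDM2A (31.3), SMYD2 (30.6), KDM5B (24.9) and SETD3 (23.9) stood highest, and PRDM1 (0.457), KDM4D (0.578) and PRDM11 (0.753) among the lowest of the tested members. Of the 10 genes with a change of at least 1.5-fold, SETD7 had the highest level, with 25.0 ± 0.0955 RPKM in the knockdown and 14.6 ± 1.04 RPKM in the controls (SD, n = 3 each).

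**Figure D3:**
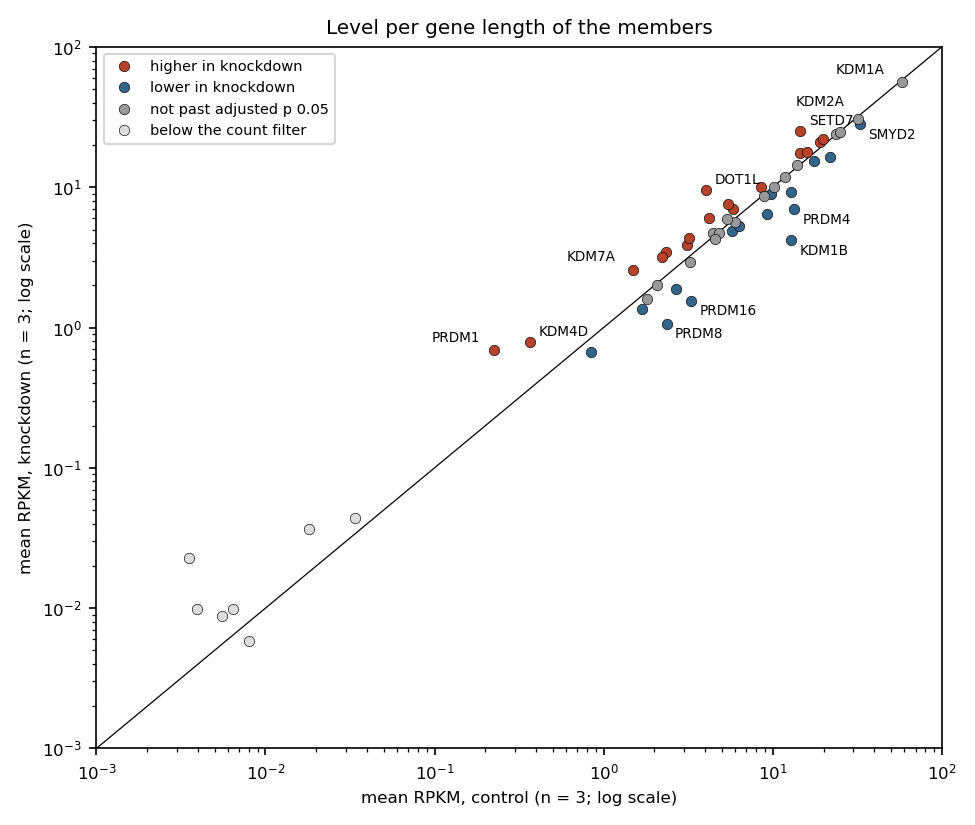
Mean RPKM of each member in the knockdown (vertical) against the control (horizontal), both on log scales, n = 3 libraries each, coloured by the call; KDM4E and KDM5D, listed at 0 in the knockdown, and 1 further member are not drawn. Genes above the line, such as DOT1L at 9.60 RPKM in the knockdown and 4.06 RPKM in the controls, were higher in the knockdown.

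Genes that work with these enzymes were read from lists chosen beside the members. Their counts stand beside 33.1% of all genes tested higher, 34.2% lower and a median of −0.01, and no list was tested as a group. Of 15 COMPASS subunits tested, 3 rose, 8 fell and 4 did not pass (median −0.12). ASH2L, a core subunit, rose by 0.59 (SE 0.0526, edgeR adjusted p = 2.14e-06), while PAGR1, a subunit of the KMT2C and KMT2D complexes, had 22.4, 21.1 and 22.0 CPM in the knockdown libraries, against 62.3, 61.0 and 66.6 CPM in the controls (−1.53, SE 0.0578, edgeR adjusted p = 3.43e-09). PAGR1 was thus apart in the opposite direction from KMT2D; its annotated interval overlaps MVP, which stood at −2.59, so shared reads cannot be assigned. Of the 9 partners of KDM1A in CoREST complexes, 2 rose and 4 fell, with PHF21A, the reader of unmethylated H3K4, at −0.48 (SE 0.0473). Of the 7 Polycomb partners of KDM2B, 3 rose and 4 fell, among them the ubiquitin ligases RING1 (0.59, SE 0.0603) and RNF2 (0.43, SE 0.0517), which rose.

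Of 10 tested genes of other H3 methyltransferases and their subunits, 4 rose and 2 fell. The Polycomb subunits EED, which rose, and SUZ12, which fell, are counted among them. SUV39H1, which trimethylates H3K9 in heterochromatin, stood at 0.59 (SE 0.0559, edgeR adjusted p = 3.14e-06) and EED at 0.37 (SE 0.0558). Of 11 other JmjC genes tested, 2 rose and 6 fell. RIOX2, a ribosomal oxygenase, fell by 0.77 (SE 0.0461, edgeR adjusted p = 9.05e-08) and JMJD1C, a relative of KDM3A and KDM3B, rose by 0.64 (SE 0.0560, edgeR adjusted p = 1.64e-06).

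Of 12 genes of methyl donor and oxoglutarate supply, 7 fell, 1 rose and 4 did not pass, with a median of −0.34 against −0.01 over all genes tested, of which 34.2% fell and 67.3% passed; the list was not tested as a group. MAT2A, which makes S-adenosylmethionine, the methyl donor of all the methyltransferases above, had 170, 171 and 170 CPM in the knockdown libraries, against 303, 305 and 277 CPM in the controls. Its regulatory subunit MAT2B had 41.7, 40.0 and 43.4 CPM in the knockdown libraries, against 85.2, 89.3 and 78.4 CPM in the controls. Neither gene's groups overlapped, and the log2 fold changes were −0.79 (SE 0.0458, edgeR adjusted p = 6.84e-08) and −1.01 (SE 0.0589, edgeR adjusted p = 6.98e-08).

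**Figure D4:**
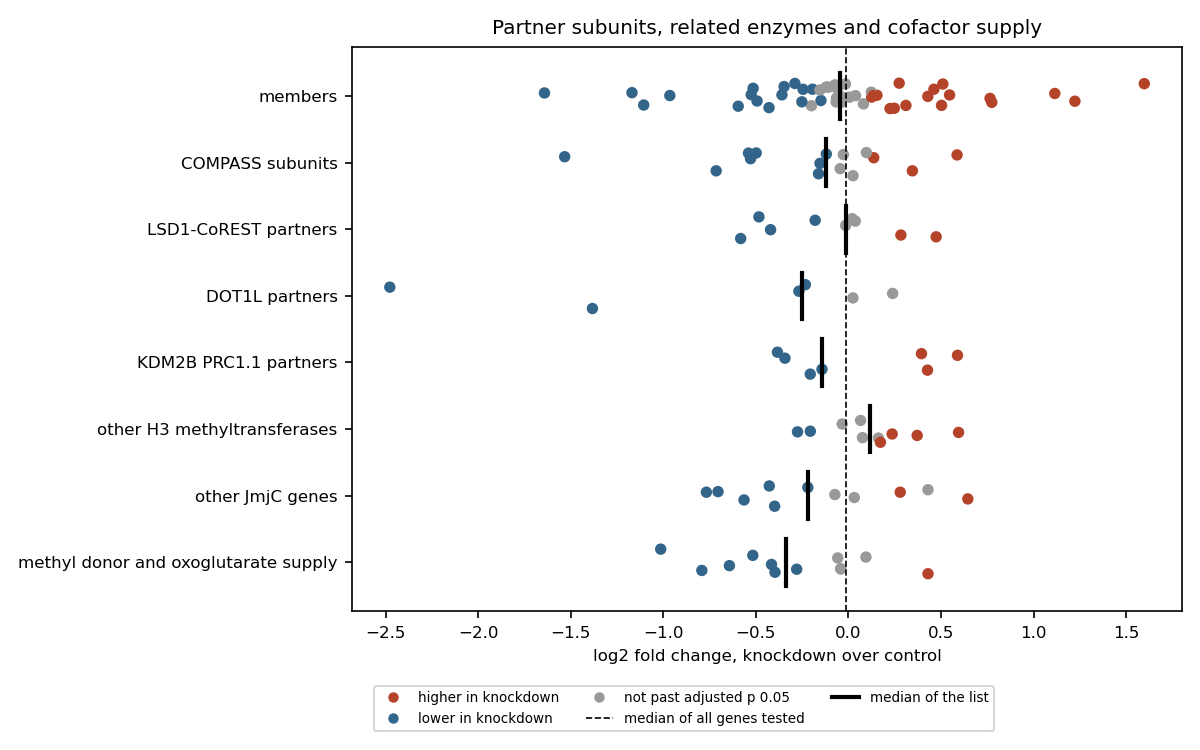
Log2 fold change, knockdown over control, of each tested gene (points, coloured by the call) in the members and in 7 lists of partner subunits, related enzymes and cofactor genes; thick bars are list medians and the dashed line is the median of all genes tested (−0.01). The lowest point is AFF4 at −2.48 among the DOT1L partners, and the list of methyl donor and oxoglutarate genes has its median at −0.34.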

How the data were processed

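Poly(A) RNA-seq of 3 knockdown and 3 control libraries was grouped by the siRNA label. GSNAP and the build GRCh38 are named per the submitters' processing notes (version, annotation and strand setting not given in the sources used here). Per the file headers, the deposited count is the number of reads aligned uniquely to each gene model, and the deposited RPKM was adjusted by the authors with a size factor. The RPKM equal the counts times a constant per library and per gene. They served for levels between genes, for shares of a summed RPKM and for library values of the most abundant members, but for no test. Symbols and coordinates came from RefSeq (GRCh38.p14, 27814 of 30727 IDs) and symbols alone from GENCODE for 21 more.

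Counts were filtered with filterByExpr (minimum count 10, minimum total 15), scaled by TMM and tested with glmQLFit and glmQLFTest of edgeR 4.0.16 in R 4.3.3, two-sided, over all genes, with Benjamini-Hochberg adjustment and a threshold of 0.05. Each fold change divides knockdown by control, and errors of means are SD over libraries. The script was tested on simulated data. Alternatives were other scalings and filters, the DESeq2 1.42.0 Wald test, limma-voom (limma 3.58.1), a test against a 1.5-fold change, thinning to equal depth and leaving out each library. Members and lists were chosen with earlier results of these data known. Values of every library are given for members changed at least 1.5-fold and the 3 of highest RPKM; those of KMT2D, ASH1L, SETD2, KDM6A and KDM6B were added after their values were seen. Of each partner list, the 2 genes of smallest p and those changed at least 2-fold are named. A few genes that these rules pick are counted but not reported by name here.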

Additional observations from a re-analysis of the deposited data

How the results depend on the processing

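Under 15 alternatives no member past the threshold changed direction. Against a 1.5-fold change, 5 members were higher and 4 lower, 1606 genes of all tested were higher and 1392 lower, and KMT5C at −0.72 no longer passed (adjusted p = 0.305; range over its alternatives 4.59e-10 to 0.305). Leaving out 1 library gave 14 to 18 higher and 15 to 20 lower members, 4533 to 5612 higher and 4651 to 5665 lower genes of all tested, and −0.88 to −0.50 for KMT5C. Of the 33 members past the threshold, 29 kept the call under every alternative but the 1.5-fold test, and SETD2, KDM3A, KDM3B and KDM5C lost it under another. Of the 16 that did not pass, 7 passed when 1 library was left out: SETD4 without control replicate 1 (−0.28, adjusted p = 0.0443), PRDM10 without knockdown replicate 2 (−0.20, 0.0455), and without control replicate 3 SETD5 (−0.08, 0.0383), KDM2A (−0.08, 0.0164), KDM4B (0.17, 0.0138), KDM5A and KDM5B. The cause was not tested. KDM4D was not tested under the higher filter. KDM4D had 17 to 102 reads a library and kept its call when the libraries were thinned. No paired analysis was possible because the labels give no replicate numbers.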

Other observations

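The nearest tested protein-coding genes on either side of, and not overlapping, the 10 members changed at least 1.5-fold were read as well. Of these 20 neighbours, 9 passed in the direction of the member, 6 in the other direction and 5 did not pass. That is 15 past the threshold, where 67.3% of all genes tested passed, at distances of 6 to 754140 bases. Beside KDM1B, which fell, TPMT, a thiopurine methyltransferase, rose by 0.90 (edgeR adjusted p = 1.33e-06), and DEK, a chromatin protein, stood at −0.01. Beside PRDM16, which fell, ARHGEF16 rose by 1.08 (edgeR adjusted p = 1.31e-06). Beside KDM4D, which rose, the splicing factor gene SRSF8 stood at −0.83 (edgeR adjusted p = 1.26e-07) and CWC15 at 0.27. Both neighbours of PRDM1 (PREP at 0.38 and ATG5 at 0.17) and of KDM7A (PARP12 at 0.29 and SLC37A3 at 0.31) were higher by less than the member itself.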
